A study of Mus musculus with 797 samples.

Results

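Malat1, Miat, Neat1 and Snhg11 are 4 of the 32285 genes in a table of read counts from single mouse brain nuclei, and all are known as sources of RNA that stays in or is enriched in the nucleus. The members were selected on their levels in these nuclei, so every level below is a description and no p-value is given. The nuclei came from C57Bl/6J mice, were labelled striatum, and were sorted 1 nucleus per library for H2B-SYFP2, a histone carrying a yellow fluorescent tag. Each mouse had received 1 adeno-associated virus in the capsid PHP.eB at 5e11 vector genomes in young adulthood, 3 to 4 weeks before nuclei were taken. The 797 nuclei carry 20 vector labels of 39 to 40 nuclei each. CMV is a broadly active viral promoter, hSyn1 is the human synapsin 1 promoter, and hI56i and DLX2.0 are Dlx gene elements used for forebrain GABAergic neurons. The other 16 labels are enhancers: AiE0078h, AiE0140h, AiE0387m, AiE0390m, AiE0391h, AiE0401h, AiE0410m, AiE0445h_3xC2, AiE0447h, AiE0450h, AiE0452h, AiE0475m, AiE0600m, AiE0682h, AiE0743m_3xC2 and AiE0779m. Sorting kept reporter-bearing nuclei, so cells in which an element was silent are not in these data. No animal is named, so each label is 1 sample, nuclei are not replicates of it, and SDs and exact (Clopper-Pearson) 95% intervals over nuclei cover the spread between nuclei and counting error, not animals.

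Malat1 RNA gathers in nuclear speckles, bodies rich in splicing factors, and is among the most abundant RNAs of neuronal nuclei. Neat1 RNA is the scaffold of paraspeckles, bodies that hold RNA-binding proteins such as Nono and Sfpq, and neurons are known for low Neat1. Miat, also called Gomafu, is a nuclear RNA of neurons that carries repeats of the letters bound by the splicing factor Sf1. Snhg11 is a host gene of small nucleolar RNAs, which guide the modification of other RNAs, and it is known as neuron-enriched.

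Malat1 (ENSMUSG00000092341) lies at chr19:5795690-5802672 on the minus strand of mm10 and is annotated as a lincRNA whose exons cover all of its 6983 bp. Neat1 (ENSMUSG00000092274), a lincRNA of 20771 bp at chr19:5824708-5845478 on the same strand, is its neighbour, with 22035 bp between them. Miat (ENSMUSG00000097767) is a lincRNA at chr5:112213228-112229395, minus strand, whose exons cover 9293 of its 16168 bp. Snhg11 (ENSMUSG00000044349) lies at chr2:158375638-158386145, plus strand, its exons cover 8521 of 10508 bp, and GENCODE M21 types it protein_coding. Miat overlaps the antisense lincRNA Gm26953, which had 301 reads in 19 of the nuclei kept; the strand setting of the counting is not given in the sources used here, so reads of the shared stretch cannot be told apart.

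The ends of these RNAs are shown because the cDNA kit, SMART-Seq v4, starts from a primer that pairs with runs of A. Malat1 and the long Neat1 form are known to be cut by RNase P just past an A-rich tract that folds into a triple helix, while Miat and the short Neat1 form have ordinary poly(A) tails. The first line gives positions 6594 to 6704 of Malat1-201 (chr19:5795969-5796079), the second the last 100 bases of Neat1-201 (chr19:5824708-5824807), both minus strand, with the longest run of A in capitals.
Malat1-201: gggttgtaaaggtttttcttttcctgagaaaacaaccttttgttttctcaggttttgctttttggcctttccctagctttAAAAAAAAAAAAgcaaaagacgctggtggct
Neat1-201: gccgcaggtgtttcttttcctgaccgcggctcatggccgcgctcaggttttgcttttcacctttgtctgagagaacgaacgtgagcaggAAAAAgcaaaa
The run of A in Malat1-201 is 12 bases long, starts at position 6674 and is followed by 298 annotated bases. Both windows share the 16 bases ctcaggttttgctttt, a U-rich stretch of the kind that pairs with the tract.

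For the short Neat1 form and for Miat the last 60 bases are shown, with the poly(A) signal AATAAA or ATTAAA in capitals (chr19:5842307-5842366 and chr5:112213228-112213287, both minus strand).
Neat1-202: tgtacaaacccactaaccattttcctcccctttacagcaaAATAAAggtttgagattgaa
Miat-205: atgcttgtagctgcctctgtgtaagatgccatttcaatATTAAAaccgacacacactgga
Either hexamer, searched on the transcript strand, also stands in the last 60 bases of Malat1-201 and Snhg11-201 and not in those of Neat1-201. It stands there in 34.5% of all 141515 GENCODE M21 transcripts of at least 60 bases. Where in these RNAs the reads fell was not tested, since the deposited values are totals per gene.

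The Sf1-type motif TACTAAC is shown for positions 5579 to 5639 of Miat-205 (chr5:112216752-112216812, minus strand), where 3 of its copies lie close together, in capitals.
Miat-205: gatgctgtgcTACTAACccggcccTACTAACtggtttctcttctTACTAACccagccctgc
Miat-205, 9163 bases long, holds 6 copies on the transcript strand, at positions 4941, 5041, 5066, 5589, 5603 and 5623, and 0 copies of the complement GTTAGTA. Of the 860 GENCODE M21 transcripts within 1000 bases of its length (8163 to 10163 bases), 0.233% hold 6 or more copies and 20.5% hold at least 1. Neat1-201 holds 1 copy, and Malat1-201, Neat1-202 and Snhg11-201 hold 0.

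Nuclei with at least 50000 reads and 1000 genes were kept, 781 of 797, with a median of 292895 reads and 2800 genes. A nucleus was called glutamatergic where Slc17a7 (a vesicular glutamate transporter) stood at 10 CPM or more and Gad1 plus Gad2 (GABA synthesis) under 10, which held for 385, and GABAergic the other way round, which held for 310; 50 met both limits and 36 neither. Of 7 spiny projection neuron markers, Adora2a and Isl1 had no read in either class, and 3 or more of the 7 were read in 7 of the 385 glutamatergic and 0 of the 310 GABAergic nuclei, although spiny neurons make up most of the striatum. Library names fall into 3 number series, called set A (AB-S40331, 516 kept nuclei), set B (AB-S40317, 178) and set C (AB-S40330, 87); what a series stands for is not stated. All 78 kept nuclei with over 1% of reads from mitochondrially encoded (mt-) genes belonged to set B, and values are therefore also given by set.

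Malat1 took more reads than any other gene. Its share of a nucleus's reads ran from 0.0656% to 32.5% with a median of 14.3%, the middle 50% of nuclei lying between 10.7% and 18.3%. It had the most reads of any gene in 767 of 781 nuclei and was read in every one. The other 14 were all in set B, and 12 of them had over 1% mt- reads. Snhg11 was next by mean share (1.34%, against 14.4% for Malat1), ahead of the imprinted lncRNA Meg3 (0.808%), and ranked second within 626 nuclei.

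Snhg11 was read in 768 of 781 nuclei (98.3%, interval 97.2 to 99.1), with a median share of 1.39% and a highest of 2.78%. Miat was read in 510 nuclei (65.3%, 61.8 to 68.6) and ranked 349 by mean share. Neat1 was read in 26 nuclei (3.33%, 2.19 to 4.84) and ranked 10907. All 4 together held 15.2% of the reads, most of it from Malat1.

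Shares are not divided by gene length, so the order was also taken per kilobase of exon on the summed reads of all kept nuclei. Malat1 stood at 19794 CPM per kb, Snhg11 at 1537, Miat at 30.4 and Neat1 at 0.395, which is the order of the shares too. As mean log2(CPM+1) with the SD over nuclei, Malat1 was 16.94 ± 0.89 (n = 781), Snhg11 13.33 ± 1.93, Miat 5.17 ± 4.13 and Neat1 0.21 ± 1.21. Malat1 thus had the smallest SD over all kept nuclei. The SD of Snhg11 there includes 13 nuclei without a read. Within classes the Snhg11 SD was below that of Malat1, at 0.85 against 0.95 in glutamatergic and 0.75 against 0.82 in GABAergic nuclei. The SD of Miat came from a split between nuclei with and without a read.

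The 16 nuclei below the limits on reads or genes show what the limits left out. Their Malat1 share ran from 0% to 65.4% with a median of 10.3%, and Malat1 was read in 15 of them. Snhg11 was read in 14, Miat in 6 and Neat1 in 0, where a count of 0 in 16 nuclei allows a share of up to 18.8%. The extremes were nuclei of few genes: the 65.4% nucleus had 155 genes, and the nucleus without a Malat1 read had 358 genes and 88.4% mt- reads.

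**Figure D1:**
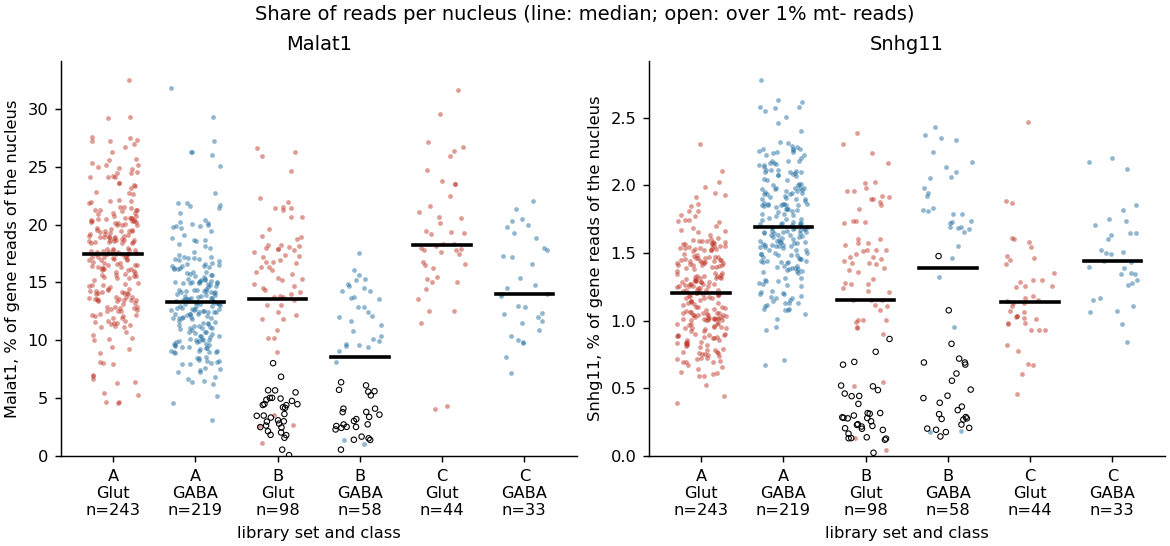
Share of each nucleus's gene reads taken by Malat1 (left) and Snhg11 (right), in percent, for glutamatergic (Glut) and GABAergic (GABA) nuclei of library sets A, B and C; each point is 1 nucleus, the line is the median and open points are nuclei with over 1% mt- reads. Malat1 medians were 17.4% and 13.3% in the 2 classes of set A, and open points occur in set B alone, near the bottom of both panels.

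Malat1 held a larger share of glutamatergic than of GABAergic nuclei, a median of 16.8% against 12.9%, and Snhg11 the smaller, 1.18% against 1.65%. On the log2 scale Malat1 was 17.09 ± 0.95 (SD, n = 385) against 16.79 ± 0.82 (n = 310), a difference of 0.30, and Snhg11 was 13.34 ± 0.85 against 13.83 ± 0.75, a difference of -0.49. Both differences are smaller than the SD over nuclei, and the classes overlapped. The median over the 9171 genes read in at least 10% of these nuclei was -0.13, and 1924 of them had a more positive difference than Malat1.

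Miat differed most between the classes. It was read in 338 of 385 glutamatergic nuclei (87.8%, interval 84.1 to 90.9) and 129 of 310 GABAergic nuclei (41.6%, 36.1 to 47.3). The mean level was 7.34 ± 3.23 against 2.80 ± 3.64, a difference of 4.55, and 14 of the 9171 genes had a larger one. Glutamatergic nuclei had 0 Miat reads in 47 nuclei, 1 to 10 in 27, 11 to 100 in 113 and over 100 in 198, while the GABAergic counts in the same ranges were 181, 29, 68 and 32. The levels overlapped: the highest was 11.19 in a glutamatergic and 10.84 in a GABAergic nucleus. Of the 4 members, 1 passed a difference of 1 upward and 0 downward; over all 9171 genes 7.17% were higher by over 1 and 9.73% lower, but the class contrast helped choose the members, so nothing is read from that count.

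Depth was close in both classes, with a median of 279379 reads in glutamatergic and 318172 in GABAergic nuclei. With 100000 reads drawn from every nucleus (2 glutamatergic and 0 GABAergic nuclei were shallower and dropped), Miat was read in 86.7% (82.9 to 89.9) and 38.1% (32.6 to 43.7). Over summed reads Miat stood at 463 CPM in glutamatergic and 108 CPM in GABAergic nuclei. That ratio is smaller than the difference of mean logs, since the mean log counts nuclei without a read as 0. Among nuclei with a Miat read, the median level was 8.78 in glutamatergic and 7.22 in GABAergic nuclei.

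Neat1 was read in 13 glutamatergic nuclei (3.38%, 1.81 to 5.71) and 4 GABAergic nuclei (1.29%, 0.353 to 3.27), so its intervals overlap and its level, 0.19 against 0.07, did not reach the 10% detection limit of the gene-wide comparison. It was read most often where a nucleus met neither class limit, in 7 of 36 (19.4%, 8.19 to 36). In those 36 nuclei Snhg11 was read in 24 (66.7%, 49.0 to 81.4) and Miat in 14 (38.9%, 23.1 to 56.5), with a Malat1 median share of 11.2%. The 50 nuclei meeting both limits lay between the classes for Miat, at 58% with a read and a mean of 4.50 ± 4.11, and had a Malat1 median share of 13.4%.

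Within sets the class order of the 3 well-read members was the same. Miat was read in 84.4% of glutamatergic and 39.7% of GABAergic nuclei of set A, 93.9% and 55.2% in set B, and 93.2% and 30.3% in set C. Malat1 differed by 0.33 in set A, 0.50 in set B and 0.32 in set C, and Snhg11 by -0.54, -0.17 and -0.34. Miat differed by 4.40, 4.23 and 5.63.

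Splitting both classes by single markers, a split chosen after values were seen, showed that Miat detection differed between interneuron markers. Nuclei with Pvalb at 10 CPM or more and no Sst, Vip or Lamp5 at that level (n = 111) had a Miat read in 23.4% (15.9 to 32.4) and a mean of 1.21 ± 2.46. Those with Sst alone (n = 78) had one in 67.9% (56.4 to 78.1) with a mean of 4.72 ± 3.72. Lamp5 alone (n = 28) gave 67.9% (47.6 to 84.1) and 5.12 ± 4.02, and Vip alone (n = 14) 42.9% (17.7 to 71.1) and 2.92 ± 3.80. The interval of the Pvalb nuclei lies below those of the Sst and Lamp5 nuclei and overlaps that of the Vip nuclei. These intervals cover counting error over nuclei, which are not replicates, so their overlap is no test between types. The split was not made within vector labels, so label and type were not separated. Left out were 20 GABAergic nuclei with none of these genes (50.0% with a Miat read) and 59 with several (25.4%).

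Among glutamatergic nuclei the same split gave shares with a Miat read from 81.6% to 92.2%. Nuclei with Cux2 alone (n = 69) had 91.3% (82.0 to 96.7), Rorb alone (n = 51) 92.2% (81.1 to 97.8) and Foxp2 alone (n = 49) 81.6% (68.0 to 91.2). Cux2 and Foxp2 are known as upper-layer and deep-layer markers in cortex, whereas these nuclei were labelled striatum. The intervals overlap. In set A the shares were 22.2% of 81 Pvalb, 71.1% of 45 Sst, 70.0% of 20 Lamp5, 33.3% of 9 Vip, 90.7% of 43 Cux2, 86.2% of 29 Rorb and 78.1% of 32 Foxp2 nuclei, in which Pvalb was again lowest.

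**Figure D2:**
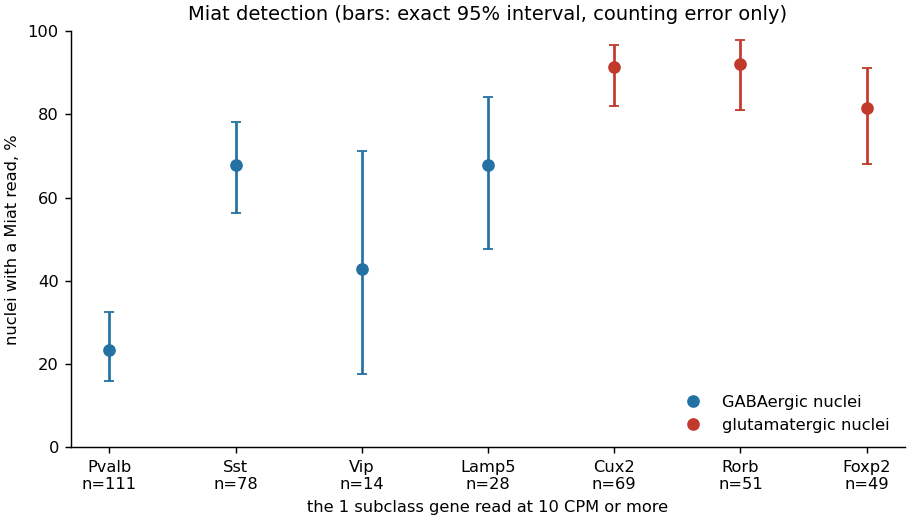
Percent of nuclei with a Miat read among GABAergic (blue) and glutamatergic (red) nuclei in which 1 named gene alone reached 10 CPM; bars are exact 95% intervals that cover counting error only, and n is the number of nuclei. Pvalb nuclei sit at 23.4%, under every other group shown, and the bar of the 14 Vip nuclei spans 17.7% to 71.1%. Nuclei with none or several of the genes are not shown, 20 and 59 of the GABAergic and 185 and 31 of the glutamatergic nuclei.

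Malat1 and Snhg11 were arranged differently over these types. Lamp5 nuclei had a Malat1 median share of 9.88%, under those of Vip (11%), Sst (13.3%) and Pvalb (13.9%) nuclei, and a Snhg11 median share of 1.97%, above those of Pvalb (1.72%), Sst (1.56%) and Vip (1.44%). In set A the Malat1 share was 9.97% in Lamp5 and 20.1% in Cux2 nuclei, with mean levels of 16.60 ± 0.55 and 17.56 ± 0.36. Foxp2 nuclei of set A, at 14.2%, were closer to Pvalb nuclei (14.2%) than to Cux2 nuclei. Snhg11 in set A was 13.39 ± 0.37 in Foxp2, 13.44 ± 0.36 in Cux2 and 13.75 ± 0.31 in Rorb nuclei; Foxp2 and Cux2 nuclei differed by less than their SDs, and Rorb nuclei stood above Foxp2 nuclei by more than the Rorb SD and less than the Foxp2 SD.

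By vector label, Malat1 means spanned 0.95 and Miat means 6.06, each more than the median SD over nuclei within labels (0.82 and 4.00). Malat1 label means ran from 16.41 (AiE0391h) to 17.36 (AiE0447h), with an SD of 0.22 over the 20 labels. No gap between neighbours in that order exceeded the SD over nuclei of either. Gaps between 20 ordered means are small even over a wide range, so they do not show that the labels were alike. Miat label means ran from 2.96 (AiE0600m, read in 42.1% of 38 nuclei) to 9.01 ± 1.33 (AiE0387m, read in 38 of 38), with an SD of 1.67 over labels. After AiE0387m came AiE0401h at 7.64 ± 3.14 and AiE0078h at 7.01 ± 3.41, and at the other end were AiE0452h (2.99), AiE0450h (3.45), CMV (3.46) and hI56i (3.53). The gap below AiE0387m was the 1 gap that exceeded the smaller neighbouring SD. Snhg11 label means ran from 11.77 ± 4.54 (AiE0140h, read in 87.5% of nuclei) to 13.98 ± 0.37 (hI56i).

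Neat1 was read in no nucleus of 8 labels, each of 38 to 40 nuclei. It was read in 4 of 40 AiE0140h nuclei and 4 of 39 AiE0779m nuclei (10.3%), the highest share, and in 1 to 3 nuclei of each of the other labels. With so few nuclei the order of the labels for Neat1 is not readable.

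The label order of Miat went with class makeup. Over the 20 labels the Spearman rho of the mean Miat level with the percent of glutamatergic nuclei was 0.89, for Malat1 0.15, for Snhg11 -0.45 and for Neat1 0.06; the nuclei of a label share vector and libraries, and both quantities come from the same nuclei. AiE0387m, AiE0401h and AiE0078h were 89.5%, 90% and 90% glutamatergic, and hI56i and AiE0450h 5.13% and 7.69%. With the number of nuclei over 1% mt- reads the rho was -0.73 for Malat1, -0.81 for Snhg11, 0.03 for Miat and 0.35 for Neat1.

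**Figure D3:**
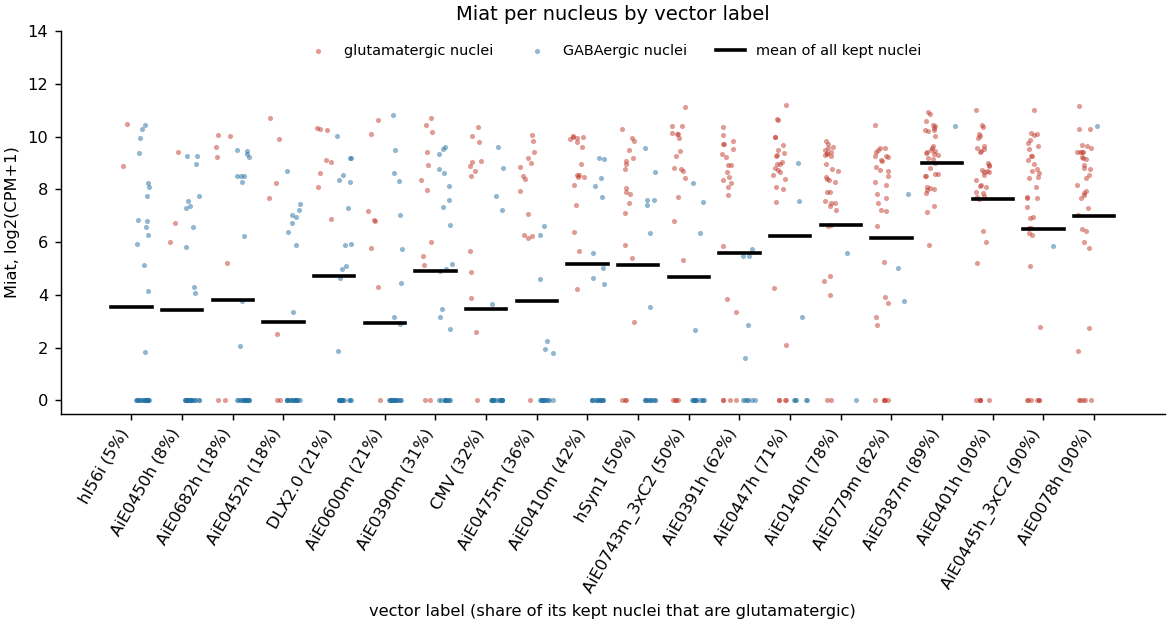
Miat level of each glutamatergic (red) and GABAergic (blue) nucleus, as log2(CPM+1), for the 20 vector labels ordered by the percent of their kept nuclei that are glutamatergic; the line is the mean of all kept nuclei of the label. Label means run from 2.96 to 9.01, and many GABAergic points lie at 0 in each label with GABAergic nuclei in number.

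Within a class the labels were closer. In glutamatergic nuclei (18 labels with at least 5) Miat means ran from 5.58 ± 4.62 (AiE0452h, n = 7) to 9.14 ± 1.15 (AiE0387m, n = 34). DLX2.0 (9.09 ± 1.22, n = 8) and AiE0410m (8.48 ± 1.70, n = 17) followed AiE0387m, and in these 3 labels every glutamatergic nucleus had a Miat read. No gap between neighbours exceeded their SDs. In GABAergic nuclei (14 labels) Miat means ran from 1.38 (AiE0475m) to 4.00 (AiE0390m), all under the lowest glutamatergic mean.

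In the 12 labels with at least 5 nuclei of both classes, Miat was higher in the glutamatergic nuclei of 12, by 2.89 to 6.26 with a median of 4.95. Snhg11 was lower in the glutamatergic nuclei of 11, and Malat1 was higher in 7 and lower in 5. The exception for Snhg11 was AiE0391h, at a difference of 2.17; its Malat1 difference, 2.82, was also the largest. In that label 9 of the 11 GABAergic and 0 of the 23 glutamatergic nuclei had over 1% mt- reads. In set A alone 4 labels had both classes in number, and there Malat1 was higher in glutamatergic nuclei by 0.01 to 0.93, Snhg11 lower, at differences of -0.22 to -0.64, and Miat higher by 2.89 to 5.97.

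Malat1 and Snhg11 label means within class spanned less in set A alone than over all sets. For glutamatergic nuclei (13 labels) they ran from 17.08 to 17.60 for Malat1 and from 13.36 to 13.74 for Snhg11, and for GABAergic nuclei (11 labels) from 16.52 to 17.25 and from 13.76 to 14.21. Over all sets the lowest GABAergic label mean of Malat1 was 14.42 ± 1, in the 11 AiE0391h nuclei.

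Set B stood apart from sets A and C in Malat1 and Snhg11. In glutamatergic nuclei Malat1 was 17.32 ± 0.49 (n = 243) in set A, 16.37 ± 1.44 (n = 98) in set B and 17.43 ± 0.57 (n = 44) in set C, with median shares of 17.4%, 13.6% and 18.2%. In GABAergic nuclei it was 16.99 ± 0.48 (n = 219), 15.87 ± 1.25 (n = 58) and 17.12 ± 0.42 (n = 33), with median shares of 13.3%, 8.58% and 14%. Snhg11 was 13.50 ± 0.43, 12.89 ± 1.41 and 13.47 ± 0.45 in glutamatergic nuclei. The wide SDs of set B came with 2 separate groups of nuclei, visible in the plot of shares by set.

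Set B minus set A in glutamatergic nuclei was -0.95 for Malat1, -0.61 for Snhg11, 0.62 for Miat and -0.27 for Neat1. Neat1 was read in 0 of 98 such nuclei of set B, which allows a share of up to 3.06%, and in 4.53% (2.28 to 7.96) of set A. The median over 8965 genes was 0.74, with 35.7% of genes higher by over 1 and 0.335% lower, so Malat1 and Snhg11 went against most genes: 35 genes were more negative than Malat1 and 111 more negative than Snhg11. Of the 4 members, 0 passed 1 in either direction. Without the nuclei over 1% mt- reads the differences were -0.17 for Malat1, 0.17 for Snhg11, 1.37 for Miat and -0.27 for Neat1. Those of Malat1, Snhg11 and Miat lie within the SD over nuclei, which for Miat was 2.28 in set B and 3.49 in set A. Miat alone then passed 1.

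Inside set B the nuclei over 1% mt- reads had less Malat1, Snhg11 and Miat. Malat1 was 15.11 ± 1.09 (n = 78) against 17.01 ± 0.83 (n = 100), with a median share of 3.94% against 14.6%. Snhg11 was 9.63 ± 4.45 against 13.78 ± 0.86, with a share of 0.275% against 1.60%, and was read in 83.3% (73.2 to 90.8) against all 100. Miat was 4.45 ± 3.62 against 6.71 ± 3.77, and Neat1 was read in 7 of the 78 (8.97%, 3.69 to 17.6) against 1 of the 100 (interval 0.0253% to 5.45%). Here the differences were -1.89, -4.15, -2.26 and 0.62. Over 10368 genes the median was 1, 50% of genes were higher by over 1 and 3.33% lower, and 3 members were lower by over 1. In this comparison 1 gene was more negative than Snhg11, 60 were more negative than Miat and 101 more negative than Malat1. The members were chosen with this contrast in view, so these counts carry no support.

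The same comparison within a class leaves out the change in class makeup. In glutamatergic nuclei Malat1 was 14.89 ± 1.23 (n = 34) against 17.15 ± 0.78 (n = 64), with shares from 0.0656% to 8.02% around a median of 3.55% against 1.12% to 26.6% around 16.5%. Snhg11 was 11.41 ± 1 against 13.67 ± 0.87, with shares of 0.0233% to 0.864% against 0.0457% to 2.38%. Miat was 6.30 ± 2.79 against 8.46 ± 2.28 and was read in 88.2% and 96.9%. The Malat1 and Snhg11 differences, both -2.26, exceed either SD, while that of Miat, -2.16, does not. Neat1 had no read in either group.

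In GABAergic nuclei Malat1 was 14.85 ± 0.82 (n = 26) against 16.70 ± 0.87 (n = 32), with median shares of 3.10% and 12.2%, and Snhg11 11.96 ± 0.86 against 13.95 ± 0.87, with median shares of 0.379% and 1.80%. Miat went the other way there, 3.81 ± 3.36 against 3.21 ± 3.74, within its SD, and was read in 61.5% (40.6 to 79.8) against 50.0% (31.9 to 68.1). Higher by over 1 were 63.7% of 10285 genes in glutamatergic and 53.2% of 10459 genes in GABAergic nuclei, and lower 1.92% and 4.73%. Lower by over 1 were 3 of the 4 members in glutamatergic nuclei and 2 in GABAergic nuclei.

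Nuclei over 1% mt- reads differed in other measures too. Their median depth was 366626 against 223770 reads in glutamatergic and 457618 against 273755 in GABAergic nuclei of set B, and they had 6564.5 against 2693 and 5903.5 against 2999.5 genes. All 4 members together held a median of 4.08% against 18.1% and 3.52% against 14.2% of the reads. The ratio of Malat1 to Snhg11 reads moved less, with medians of 14 and 10.8 Malat1 reads per Snhg11 read in glutamatergic and 7.55 and 6.93 in GABAergic nuclei. Whether depth, gene number or mt- reads have a part in the member levels was not tested.

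**Figure D4:**
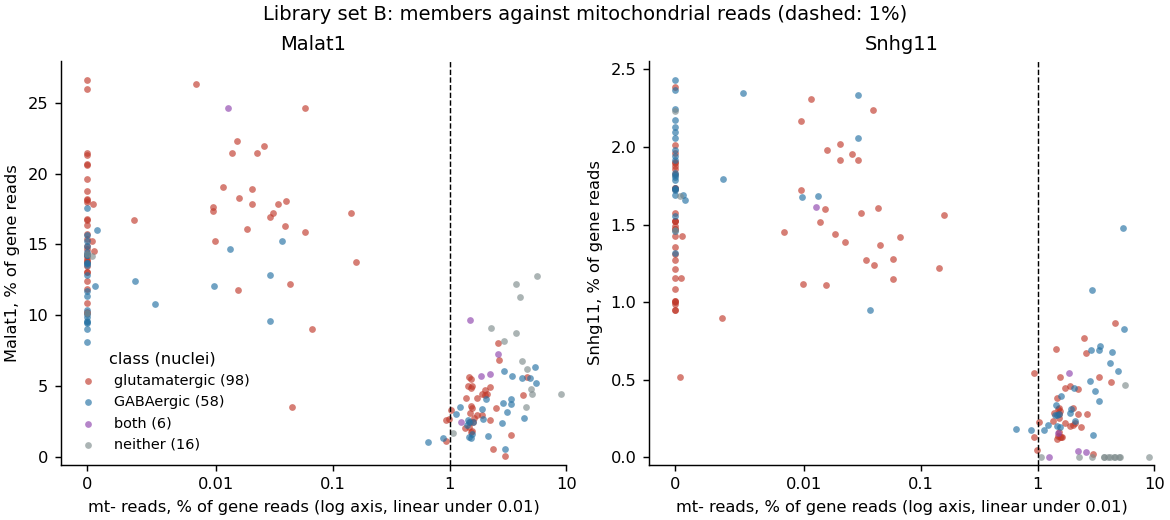
Malat1 (left) and Snhg11 (right) share of gene reads in percent against the percent of reads from mt- genes, for the 178 kept nuclei of set B coloured by class; the x axis is logarithmic above 0.01 and linear below, and the dashed line marks 1%. To the right of the line no Malat1 point exceeds 12.8%, and the points between 0.5% and 1% lie with those to the right.

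The limit of 1% falls inside the low group. Glutamatergic nuclei of set B with 0.5% to 1% mt- reads, just outside the group, had a Malat1 mean of 14.28 (n = 3) and a Snhg11 mean of 10.53, and those with 1% to 1.5%, just inside, 15.01 (n = 7) and 11.48. Up to 0.01% mt- reads the means were 17.30 and 13.77 (n = 39), from 0.01% to 0.1% 17.29 and 13.95 (n = 20), and from 0.1% to 0.5% 17.23 and 13.75 (n = 2). From 1.5% to 3% Malat1 was 15.08 (n = 23), and beyond 3% it was 13.63 with a median of 14.68 (n = 4), the lowest of the 4 being at 9.36. In GABAergic nuclei Malat1 was 16.89 up to 0.01% (n = 26), 13.57 from 0.5% to 1% (n = 2) 14.59 from 1% to 1.5% (n = 6), 14.50 from 1.5% to 3% (n = 11) and 15.47 beyond 3% (n = 9). The levels were thus lower from 0.5% mt- reads on than up to 0.5%, and few nuclei lay between 0.1% and 1%. The 3 glutamatergic nuclei from 0.5% to 1% were all of AiE0445h_3xC2, so label and mt- share cannot be told apart there.

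Low-Malat1 nuclei were concentrated in set B. A Malat1 share under 2% was found in 14 nuclei, all of set B and 11 of them over 1% mt- reads, and a share under 5% in 69, of which 59 were of set B and 53 over 1%. The lowest was an hSyn1 glutamatergic nucleus with 527561 reads, 6759 genes, 3.01% mt- reads, 0.0656% Malat1 and 0.0233% Snhg11. The 3 highest Malat1 shares were 32.5% in a glutamatergic AiE0447h nucleus of set A, 31.8% in a GABAergic AiE0450h nucleus of set A and 31.6% in a glutamatergic CMV nucleus of set C. These 3 nuclei had 2343, 3128 and 2368 genes.

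Nuclei over 1% mt- reads followed the vector label in part. Of the 17 labels with kept nuclei in set B, 7 had all of them over 1% (AiE0078h, AiE0140h, AiE0452h, AiE0475m, AiE0743m_3xC2, AiE0779m and hSyn1), 5 had none and 5 had some. In the 7 labels the label and the mt- share cannot be told apart within set B. In the 5 mixed labels Snhg11 was lower over 1% in all 5, at differences of -1.37 to -7.15. Some of these nuclei had no Snhg11 read, 1 in AiE0445h_3xC2 and 2 in AiE0450h. Among nuclei with a Snhg11 read the Snhg11 difference was 0.92 in AiE0445h_3xC2 (n = 4 and 3), so its sign turned, and -2.48 in AiE0450h (n = 3 and 3), and it was -2.38, -1.65 and -3.00 in AiE0390m, AiE0391h and AiE0600m. Malat1 was lower in 4, with differences of -2.69 in AiE0390m (n = 4 and 11), -2.11 in AiE0391h (n = 9 and 14), -2.26 in AiE0600m (n = 3 and 5) and -1.54 in AiE0450h (n = 5 and 3). In AiE0391h the 9 nuclei over 1% were all GABAergic and 12 of the 14 others glutamatergic, whereas all 8 AiE0600m nuclei were glutamatergic. In AiE0445h_3xC2 Malat1 was higher by 0.80 (n = 5 and 3), and the 3 nuclei under the limit there were the 3 with 0.5% to 1%. Miat was lower in 4 of the 5, at differences of -0.34 to -6.13, and higher by 0.72 in AiE0450h. Among nuclei with a Snhg11 read Miat was lower in 3 of the 5, with differences of 0.70 in AiE0445h_3xC2 and 3.41 in AiE0450h, and Malat1 in the same 4 as before. In AiE0450h 2 of the 5 nuclei over 1% were glutamatergic and 1 GABAergic, while the 3 others were all GABAergic. Class and mt- share cannot be told apart for Miat in that label.

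Malat1 and Snhg11 levels were correlated over the pooled nuclei of set B and hardly in set A. The set B values below pool nuclei over and under 1% mt- reads, groups that differ in both genes. No rho was taken within either group, so whether the levels move together from nucleus to nucleus there was not tested. Spearman's rho between their levels was 0.74 in 98 glutamatergic and 0.78 in 58 GABAergic nuclei of set B, and 0.18 in 243 and -0.07 in 219 of set A. With the percent of mt- reads the rho of Malat1 was -0.68 in both classes of set B and 0.05 in both of set A. With the number of genes it was -0.57 and -0.70 in set B, and 0.03 and 0.31 in set A. Malat1 and Miat had a rho of 0.52 in glutamatergic and 0.00 in GABAergic nuclei of set B. All these points share 1 total per nucleus, so a gene as abundant as Malat1 lowers the CPM of others when it is high; no p is given.

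Snhg11 split the nuclei by presence. The 768 nuclei with a read had at least 0.0233% of their reads from it, and no kept nucleus had 1 to 10 reads. The other 13 nuclei had 0 Snhg11 reads at a median depth of 475848 reads and 2265 genes. All 13 were of set B and over 1% mt- reads, 12 met neither class limit and 1 met both, and they carried 7 labels, 5 of them AiE0140h. Malat1 was read in all 13, at 1.70% to 12.2% with a median of 6.19%, Miat in 1 and Neat1 in 6.

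Astrocyte markers were read in those nuclei. Slc1a3, a glial glutamate transporter, was read in 13 of 13 (mean 11.94), the gap junction gene Gja1 and the glycolytic gene Aldoc in 11 each, the water channel Aqp4 and Aldh1l1 in 8 each and Gfap in 3. Their summed level was 3.29 to 26874 CPM with a median of 21103, against 0 to 3580 CPM with a median of 0 in the 768 nuclei with a Snhg11 read. At least 3 of the 6 markers were read in 11 of 13, in 1 of 385 glutamatergic and in 1 of 310 GABAergic nuclei. Of the 13, 1 nucleus had reads of all 4 oligodendrocyte precursor markers (Pdgfra, Cspg4, Olig1 and Olig2), summed to 4777 CPM. Of the glutamatergic markers Slc17a7 was read in 1 of 13 and Neurod6 in 0, and of the GABAergic ones Gad1 in 1 and Gad2 and Slc32a1 in 0. The Snhg11 difference over all nuclei of set B rested in part on these 13: among nuclei with a Snhg11 read it was -2.22.

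Neat1 was read more often there than elsewhere, in 6 of those 13 nuclei against 20 of 768. Its 26 nuclei had 1 to 643 reads, and the highest 2 levels, 10.40 (643 reads, AiE0140h) and 10.10 (212 reads, AiE0452h), were both in set B nuclei without a Snhg11 read. By class the 26 were 13 glutamatergic, 4 GABAergic, 2 meeting both limits and 7 meeting neither, and by set 15 of A, 8 of B and 3 of C. Among the 13 set B nuclei over 1% mt- reads that met neither class limit, which include 12 of those without a Snhg11 read, Neat1 was read in 6 (46.2%, 19.2 to 74.9), Miat in 0 (up to 23.1%) and Snhg11 in 1. The neuronal nuclei with Neat1 reads reached 150 reads (AiE0445h_3xC2, set A, 2793 Snhg11 reads) and lie among the other neuronal nuclei in the plot of Snhg11 against astrocyte markers.

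**Figure D5:**
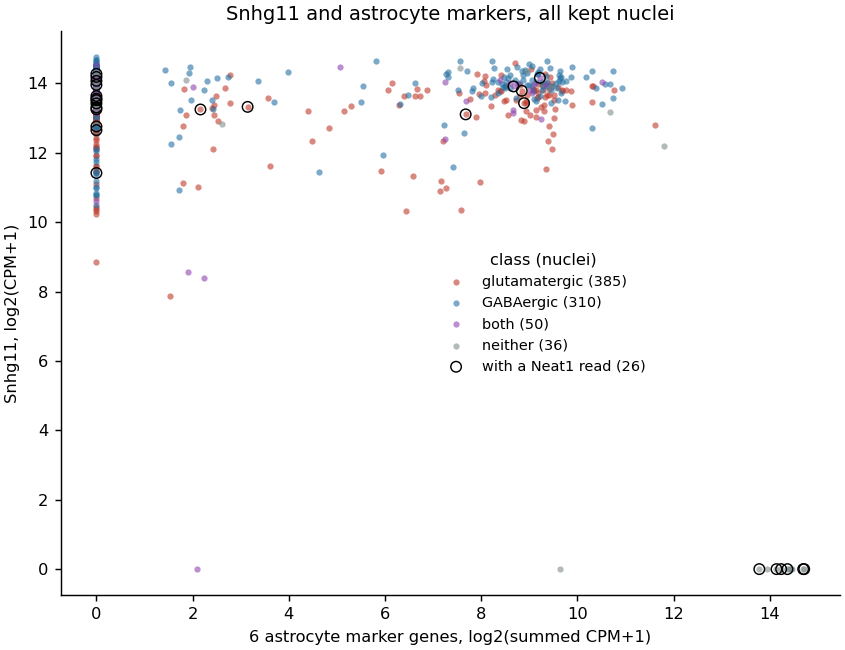
Snhg11 level against the summed CPM of 6 astrocyte marker genes, both as log2 of CPM+1, for all 781 kept nuclei coloured by class; circles mark the 26 nuclei with a Neat1 read. The 13 nuclei at a Snhg11 level of 0 are set apart from the 768 others; 11 of them lie at the right end, and 6 of the 13 are circled.

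Genes most like each member across nuclei were sought in set A, among 843 or 844 genes read in at least 50% of nuclei of both classes, by the mean Spearman rho over 243 glutamatergic and 219 GABAergic nuclei. For Malat1 they were R3hdm1 (0.43 and 0.21), Sorbs2 (0.42 and 0.18) and the carbonic anhydrase Car12 (0.28 and 0.20). For Snhg11 they were the splicing factor Srsf5 (0.19 and 0.30), Meg3 (0.39 and 0.08) and Macrod2 (0.30 and 0.15). For Miat they were 3110039I08Rik (0.22 and 0.19), Kctd16 (0.15 and 0.25) and Luc7l3 (0.19 and 0.19), and for Neat1 Gas5, Atp6v1g2 and Tuba1b, with means of 0.12, 0.12 and 0.11. All are weak and share the nucleus total, so no likeness stands out.

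Miat's class difference was also set beside those of other long noncoding RNAs. Of 32 on a list of nuclear, snoRNA-host and other lncRNAs, 30 are in the table and 27 entered the class comparison, of which 0 were higher by over 1 in glutamatergic nuclei and 4 lower: Sox2ot (-3.77), Dlx6os1 (-3.43, from the Dlx5/6 locus of GABAergic neurons), Pvt1 (-1.39) and Mirg (-1.13). Their median was -0.31, against -0.13 over all genes, of which 7.17% were higher and 9.73% lower by over 1, so the counts are near the background. Of 4 genes for proteins known to bind Miat, Celf3 was higher (1.39), Qk (-3.27, a glial and neural splicing regulator) and Srsf1 (-1.06) were lower, and Sf1 did not pass 1. Among 16 paraspeckle protein genes 0 were higher and 2 lower (Hnrnpk -1.16, Taf15 -1.14), and among 19 speckle protein genes 0 and 2 (Srsf1 -1.06, Srsf2 -1.01).

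Against mt- reads in glutamatergic nuclei of set B, the lncRNA list split: 7 of 24 were higher by over 1 and 6 lower, with a median of -0.36, where all genes had a median of 1.53, 63.7% higher and 1.92% lower. Lower with Malat1 and Snhg11 were Kcnq1ot1 (-2.87), Ftx (-2.73), Snhg20 (-2.60), Meg3 (-1.88) and Gas5 (-1.86), and higher were Peg13 (6.02), Tug1 (2.91), Pantr1 (2.89), Snhg8 (2.25) and Snhg12 (1.56). In GABAergic nuclei 5 of 27 were higher, led by Peg13 (7.45), Pantr1 (3.66) and Zfas1 (2.97), and 9 lower, led by Sox2ot (-2.55), Firre (-2.54), Snhg20 (-2.35) and Kcnq1ot1 (-2.15), with a median of -0.45 against 1.12 over all genes, of which 53.2% were higher and 4.73% lower. Long noncoding RNAs as listed therefore stood on both sides.

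Protein genes of the bodies that hold Malat1 and Neat1 were read against the same shares of all genes, 63.7% higher and 1.92% lower in glutamatergic and 53.2% and 4.73% in GABAergic nuclei. Of 16 paraspeckle protein genes 11 were higher and 0 lower in glutamatergic nuclei (median 2.13), led by Sfpq (4.26), Nono (3.69), Hnrnpk (3.65), Matr3 (3.49) and Pspc1 (2.90), and in GABAergic nuclei 10 were higher and 2 lower (median 1.37), counts near the share of all genes. Of 18 speckle protein genes 6 were higher, led by U2af2 (3.30), Srsf3 (2.71) and Ddx39b (1.96), and 5 lower, namely Srsf5 (-3.17), Pnn (-2.02), Srsf11 (-1.58), Luc7l3 (-1.38) and Srsf7 (-1.15), with a median of -0.37; in GABAergic nuclei 6 of 19 were higher and 7 lower (median -0.56). Sf1, whose protein binds the Miat repeats, was higher by 3.84 and 3.09.

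Cytoplasmic and mitochondrial messages, set against the same 63.7% and 53.2% of all genes, were higher over 1% mt- reads in 16 of 16 cases in glutamatergic nuclei (median 3.99), led by Rps3 (6.38), Eef1a1 (6.06), Cox4i1 (5.53), Ndufa4 (5.22) and Uqcrh (5.12), and in 15 of 16 in GABAergic nuclei (median 3.53). Of 10 immediate early genes, which are switched on by activity and by tissue handling, 9 were higher in glutamatergic nuclei (median 2.12) and 5 of 6 in GABAergic nuclei. Between the classes, where 7.17% of all genes were higher and 9.73% lower, 1 of the 16 messages was higher in glutamatergic nuclei (Fth1, 1.03) and 3 lower, and 6 of 8 immediate early genes were higher, led by Arc (4.77), Nr4a1 (3.55) and Egr1 (3.27). Their part in the member levels was not tested.

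Between sets B and A, where 35.7% of all genes were higher by over 1 and 0.335% lower, glutamatergic nuclei had 6 lncRNAs of 23 higher by over 1 (Peg13 2.60, Pantr1 1.52, Tug1 1.42, Rian 1.21 and Snhg6 1.13 first) and 1 lower (Xist, -1.34), and 9 of 16 cytoplasmic and mitochondrial messages higher (median 1.11), led by Eef1a1 (2.72). Paraspeckle protein genes were higher in 5 of 16 and speckle protein genes higher in 5 and lower in 1 of 19, the latter Srsf7 (-1.59), while 0 of 9 immediate early genes passed 1; the lncRNA, paraspeckle and speckle counts of higher genes are at or below the share of all genes. Malat1 and Snhg11, at -0.95 and -0.61, thus lay below the medians of all of these lists, which ran from -0.04 for speckle protein genes to 1.11.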

How the data were processed

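SMART-Seq v4 cDNA was made into Nextera XT libraries, per the labels. The authors deposited whole-number read counts for every gene in every nucleus; the method has no molecular identifiers, so amplified copies add to a count. STAR 2.7.2a and mm10 stand in the submitters' processing notes. Which counter, annotation, strand and intron settings produced the counts is not given in the sources used here; intron reads could add to Miat and Snhg11, whereas the exons of Malat1 cover the whole gene. Of 2501 columns, 797 matched a library name in the labels and 1704 were not used. Symbols came from GENCODE M21 by identifier for 32158 of 32285 rows; rows without one held 0.0931% of reads. Transcript sequences are those of GENCODE M21.

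Nuclei under 50000 reads (9) or 1000 genes (8) were left out, 16 in all. CPM is counts per 1e+06 gene reads; levels are log2(CPM+1), and a fold read from them is understated for low genes. Comparisons were differences of means over all genes read in at least 10% of the nuclei compared, counted as called past 1. Thinning to 100000 reads left out 5 kept nuclei. Intervals use the Clopper-Pearson method at 95%; where a gene had 0 reads the limit is 3 nuclei of the total. No test was run, since the labels name no animal. The members and lists were chosen with earlier results of these data known. Named genes were the 4 members, for each the 3 genes of highest mean rho, and from each list at most 5 genes a direction past 1. The code was tested on simulated data. Alternatives were another pseudocount, no filter, summed reads, label means, single sets or classes, another mt- limit and leaving out each vector label. Python 3.11.15, numpy 2.4.6, pandas 2.3.3, scipy 1.17.1 and matplotlib 3.10.9 were used.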

Additional observations from a re-analysis of the deposited data

How the results depend on the processing

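Of 400 values recomputed for 13 results, 376 stayed within the spread between vector labels, and 7 had the other sign than the reported value. Leaving out 1 vector label gave 260 of the values. Of the other 140 values, 117 stayed. The spread is the SD of label means and exceeds some results. For Malat1 between classes it was 0.69 against a difference of 0.30, so even a change of sign there could count as staying. No paired analysis was possible because the replicate numbers in the labels only number nuclei and pair none across groups; the report compares classes within vector labels as a description. Miat over against under 1% mt- reads (-2.26) was 0.60 in GABAergic nuclei alone. Miat between classes (4.55) was 2.98 with a pseudocount of 10, 2.10 as the log2 ratio of summed reads and 5.63 in set C alone; Neat1 between classes (0.12) was 2.04 over summed reads and -0.20 in set B alone. Malat1 over 1% mt- reads (-1.89) was -2.11 with no filter on nuclei, -1.56 over vector label means, -2.12 with a limit of 0.5% and -2.26 in glutamatergic nuclei alone. Snhg11 there (-4.15) was -3.11 over label means, -2.28 over summed reads, -2.26 in glutamatergic and -1.99 in GABAergic nuclei. Neat1 there (0.62) was 0.36 with a pseudocount of 10, -0.46 over label means, 4.87 over summed reads, 0 in glutamatergic and -0.045 in GABAergic nuclei.

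Added after seeing the data were the set comparison without nuclei over 1% mt- reads, -0.17 for Malat1 (-0.95) and 0.17 for Snhg11 (-0.61), and the mt- comparison in nuclei with a Snhg11 read, -2.22 for Snhg11 and -0.00046 for Neat1; within AiE0445h_3xC2 that alternative turned Snhg11 from -1.37 to 0.92. Leaving out each vector label gave -4.49 to -3.56 for Snhg11 over 1% mt- reads, the last without AiE0140h, -1.97 to -1.78 for Malat1 and 4.40 to 4.67 for Miat between classes; 259 of 260 such values stayed within the spread. The set comparison of Neat1 over summed reads gave no value, since set B had 0 reads. The causes of these shifts were not tested. A read count of 0 at these depths does not show that an RNA is absent.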
